A study of Mus musculus with 2 samples.

Results

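Transcripts of 9 enzymes that consume nicotinamide adenine dinucleotide (NAD) were followed in leukocytes from mouse mammary tumors. The enzymes were the sirtuins Sirt1, Sirt2, Sirt3, Sirt6 and Sirt7, the poly(ADP-ribose) polymerases Parp1 and Parp2, and the ectoenzymes Cd38 and Bst1. They were taken by gene symbol, and all 9 were present among the 27998 genes of the count tables. Tumors of the transplantable TSA mammary adenocarcinoma had been grown under the skin of Balb/c mice, and CD45+ cells (leukocytes) were recovered from them on magnetic beads. The untreated library and the NAM library, from mice that drank water with 0.5% nicotinamide (NAM, a vitamin B3) over 10 days, each pooled the tumors of 3 mice. There was 1 library in each group, so replicate error is unknown for every difference, and library batch and NAM cannot be told apart. The labels give neither the age nor the sex of the mice.

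NAD is a redox carrier, but it is also a substrate that these enzymes split, and NAM is a product of the cleavage. Sirtuins use it to remove acetyl and related groups from lysines, PARPs transfer its ADP-ribose to proteins at sites of DNA damage, and CD38 and BST1 hydrolyze or cyclize it at the cell surface. NAM is both the precursor that the salvage pathway turns back into NAD and a feedback inhibitor of several of these enzymes. The data are RNA counts and do not measure enzyme activity, NAD or NAM.

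There were 2922 untreated cells with 29161823 unique molecular identifiers (UMIs, a count of captured RNA molecules) and 3276 NAM cells with 32090120 UMIs. Median depth was 9056 and 9128 UMIs per cell, and 11 barcodes were found in both libraries. Cells were assigned to 12 types by UMI counts of marker genes, which placed 5183 of 6198 cells (83.6%). Among them, 4 gates divided the macrophages (cells with C1q and Csf1r UMIs). The 3 described here were Vcam1 Dnase1l3 macrophages (607 untreated and 633 NAM cells), proliferating macrophages with mitotic transcripts (318 and 290) and other macrophages (919 and 1031). The other gates held Ly6c2 monocytes (142 and 162 cells), 3 dendritic types (56 and 61 in all), CD8, regulatory-like and other T cells (187 and 247 in all) and NK cells (59 and 35). The gates were checked on markers that none of them had used. The 4 macrophage markers Apoe, Adgre1, Mrc1 and Cd68 summed to 16562 and 15825 UMIs per 1000000 (CPM) in macrophages but to 649 and 621 CPM in T cells. The monocyte markers Plac8, Ccr2 and Thbs1 summed to 4703 and 5519 CPM in Ly6c2 monocytes, to 1777 and 1731 CPM in Cd209a dendritic cells, to 1352 and 1162 CPM in NK cells and to 299 and 272 CPM in macrophages. In the Cd209a gate the dendritic markers Flt3, Zbtb46, Batf3 and Ccl22 summed to only 115 and 127 CPM, so its dendritic name rests on the gating gene. The check markers did not separate CD8 T cells from NK cells, which were divided only by the Cd3, Cd8 and NK genes of their gates. The NK markers Klrk1, Nkg7, Prf1 and Xcl1 summed to 4157 and 4820 CPM in CD8 T cells and 4857 and 4874 CPM in NK cells. The T markers Cd2, Cd28, Lck and Cd5 summed to 1170 and 1383 CPM and to 778 and 1024 CPM. The haemoglobin genes Hbb-bs and Hba-a1 stood apart between libraries, at 15.6 CPM in untreated and 3865 CPM in NAM T cells, and at 18.9 and 5549 CPM in monocytes. In the NAM library 5 cells had 1% or more haemoglobin UMIs (0 in the untreated library), and the 88 member ratios recomputed without them all stayed within their intervals.

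Levels are given as CPM, the UMIs of a gene for every 1000000 UMIs of all genes in the cells of a gate, with the untreated value first. All intervals are exact 95% intervals (Poisson for a level, conditional binomial for a log2 ratio) and cover counting error only, not differences between cells, mice or libraries. Since cells of a library are not replicates, nothing was tested. CPM were compared between cells and libraries for the same gene, and not between genes. Of 216 member values (9 genes in 12 gates and 2 libraries), 14 were 0 UMIs, all in dendritic, T or NK gates where 3 UMIs would have been 10.3 to 44.9 CPM.

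The ectoenzymes differed between cell types. Cd38 was highest in Vcam1 Dnase1l3 macrophages and low in Ly6c2 monocytes, whereas Bst1 was, of the types described, highest in monocytes and low in lymphocytes. Both genes showed this order in each library. CD38 is the main surface NAD hydrolase of leukocytes, and BST1 (CD157) is its GPI-anchored paralog on myeloid cells. The genes are neighbors (GRCm38, GENCODE): Bst1 lies at chr5:43818885-43843986 and Cd38 at chr5:43868553-43912375, both on the plus strand, with 24566 bases and 0 annotated genes between them. Their coding sequences shared 59.4% of 818 aligned bases, and the longest run without a difference was 12 bases.

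Cd38 stood at 83.8 CPM (76.8 to 91.4, 517 UMIs) in untreated and 77.6 CPM (70.9 to 84.8, 488 UMIs) in NAM Vcam1 Dnase1l3 macrophages. Other macrophages had 34.7 and 35.1 CPM and proliferating macrophages 24.0 and 19.8 CPM. No interval of another macrophage gate reached that of the Vcam1 Dnase1l3 gate. Against the 3 other macrophage gates together, Cd38 was 2.68-fold higher there in the untreated library (log2 1.42, interval 1.24 to 1.60) and 2.54-fold higher in the NAM library (log2 1.34, 1.16 to 1.52). With gates on thinned cells the untreated log2 difference was 1.22, and with every lower bound of the gates doubled it was 1.19. Cd38 was the only member past the fold used throughout (a log2 difference of 0.5, or 1.41-fold) in this gate in both libraries, and no member was lower by it. Among all 8530 genes with enough UMIs, 2.49% were higher and 8.32% lower by that rule.

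In proliferating macrophages Cd38 was the low member, with a log2 difference from the other macrophage gates of -1.12 (-1.41 to -0.84) in the untreated and -1.29 (-1.62 to -0.97) in the NAM library. Ly6c2 monocytes held 9 and 11 Cd38 UMIs, or 10.0 CPM (4.58 to 19.0) and 12.1 CPM (6.02 to 21.6). These were 21.8% and 28.0% of the macrophage levels, beside 32.8% and 35.1% for the summed macrophage markers. T cells gave 33.4 CPM (32 UMIs) and 28.5 CPM (36 UMIs), which were 72.7% and 66.2% of the macrophage levels, where the macrophage markers stood at 3.92% in both libraries. Relative to macrophages, T cells thus held far more Cd38 than macrophage marker RNA. NK cells (24.9 and 18.8 CPM, 9 and 3 UMIs) could not be placed apart from T cells at this depth. Not every dendritic gate was apart from Vcam1 Dnase1l3 macrophages. Type 1 dendritic cells had 62.5 CPM (34.2 to 105, 14 UMIs) in the NAM library, which overlapped them, and 28.2 CPM (10.3 to 61.3, 6 UMIs) in the untreated library, which did not. Untreated mature dendritic cells (34.9 CPM, 9.51 to 89.4, 4 UMIs) also overlapped them.

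Bst1 reached 140.3 CPM (117 to 167, 126 UMIs) in untreated and 143.6 CPM (120 to 170, 131 UMIs) in NAM monocytes. The 3 macrophage gates described were lower in both libraries, at 57.4 and 62.9 CPM in other macrophages, 50.9 and 52.8 CPM in proliferating and 43.8 and 51.5 CPM in Vcam1 Dnase1l3 macrophages. Against all macrophages together, monocytes held 2.41-fold more Bst1 in the untreated library (log2 1.27, 0.99 to 1.54) and 2.27-fold more in the NAM library (log2 1.19, 0.92 to 1.44).

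T cells had 5 and 15 Bst1 UMIs, or 5.21 CPM (1.69 to 12.2) and 11.9 CPM (6.64 to 19.6), and NK cells had 1 UMI in each library. The T-cell levels were 8.96% and 18.8% of those in macrophages. Vcam1 Dnase1l3 macrophages, where Cd38 was highest, were below the 3 other macrophage gates together in Bst1, with a log2 difference of -0.54 (-0.74 to -0.35) in the untreated and -0.38 (-0.57 to -0.21) in the NAM library. Over the 24 combinations of gate and library their Pearson r on log2(CPM + 10) was 0.18, which is a description of points that share 2 libraries.

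**Figure D1:**
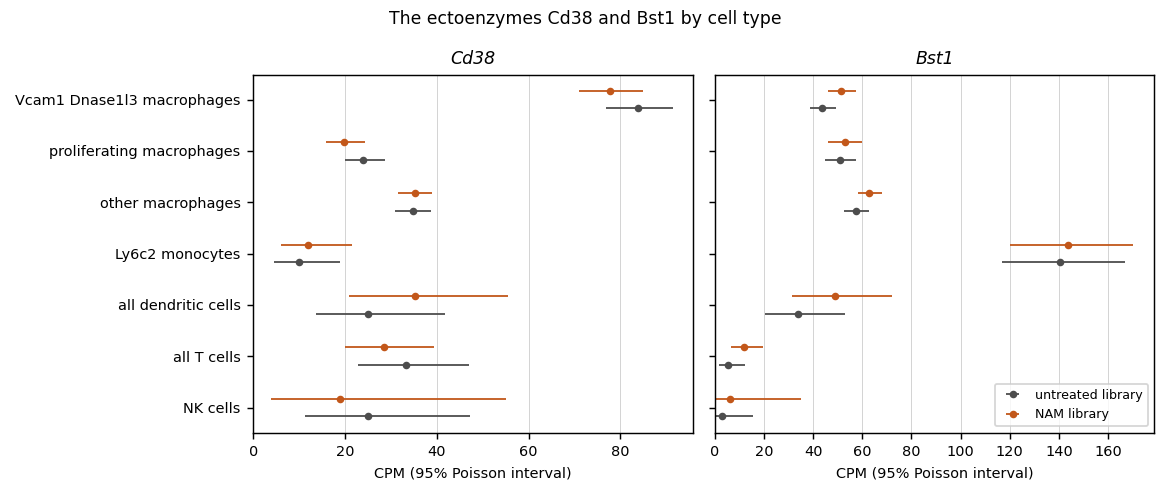
Levels of Cd38 (left) and Bst1 (right) in CPM, with 95% Poisson intervals, in 3 macrophage gates, Ly6c2 monocytes, pooled dendritic and T cells and NK cells of the untreated (grey) and NAM (orange) libraries. Cd38 peaked in Vcam1 Dnase1l3 macrophages (83.8 and 77.6 CPM), and Bst1 in monocytes (140.3 and 143.6 CPM).

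The genes with the pattern most like that of Bst1, among 6860 genes with 500 or more UMIs, were Dpep2 (r = 0.94), Evi2a (r = 0.93) and Cysltr1 (r = 0.93). For Cd38 they were Trim44 (r = 0.74), Orai3 (r = 0.73) and mt-Co2 (r = 0.72), a weaker likeness. Each r runs over the same 24 points and carries no test, and small gates weigh as much in it as large ones.

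Parp1 and Parp2 encode the nuclear enzymes that bind DNA breaks and build poly(ADP-ribose) chains, PARP1 doing most of this and PARP2 sharing part of the task. Their coding sequences were 70.9% identical over 1655 aligned bases, with a longest identical run of 11 bases. Parp1 lies at chr1:180568924-180601254 and Parp2 at chr14:50807841-50821301, both on the plus strand. The 250 bases before the RefSeq start of Parp1 (GRCm38.p6, chr1:180568641-180568890, plus strand) are shown because Parp1 was the member with most UMIs among those whose ratio between libraries had an interval wholly below 0 in macrophages and because the window lay outside the GENCODE gene, as those of the members other than Sirt3 did not. CG dinucleotides are in capitals.
Parp1: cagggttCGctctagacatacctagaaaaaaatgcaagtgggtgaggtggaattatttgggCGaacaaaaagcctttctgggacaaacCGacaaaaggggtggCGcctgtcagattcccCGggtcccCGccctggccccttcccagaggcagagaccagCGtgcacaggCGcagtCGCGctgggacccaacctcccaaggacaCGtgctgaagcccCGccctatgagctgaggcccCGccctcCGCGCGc
The window held 16 CG, more than 74.6% of the 32851 RefSeq windows of this length, whose median was 6. It held 3 copies of the GC box GGGCGG (or CCGCCC on the other strand), which occurred in 32.7% of all windows. These matches describe the letters of the window and were looked for after the expression values were known.

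Among the macrophage gates, Parp2 was highest in proliferating macrophages, at 39.0 CPM (33.7 to 44.9, 193 UMIs) and 39.6 CPM (33.9 to 45.9, 176 UMIs). Vcam1 Dnase1l3 macrophages had 23.0 and 17.0 CPM and other macrophages 17.4 and 21.6 CPM. The proliferating gate did not overlap any other macrophage gate in either library. Its Parp2 level was 2.07-fold that of the 3 other macrophage gates in the untreated library (log2 1.05, 0.79 to 1.31) and 2.08-fold in the NAM library (log2 1.06, 0.79 to 1.32). Parp2 was the only member higher by the fold in proliferating macrophages in both libraries and Cd38 the only lower one, against a background of 13.7% of genes higher and 5.67% lower.

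Parp1 stood at 50.7 CPM (44.6 to 57.3) and 44.7 CPM (38.7 to 51.4) in proliferating macrophages, which was 1.34 and 1.47 times the level in the other macrophage gates. Of 13 proteins that work with PARP1 in DNA repair, 8 had enough UMIs, and 5 of these (Xrcc1, Pcna, Rpa1, Rpa2 and Xrcc6) were higher by the fold in proliferating macrophages in both libraries, where 13.7% of all genes were. Xrcc1, the scaffold that poly(ADP-ribose) recruits to single-strand breaks, was at 30.9 and 27.2 CPM there and at 16.4 and 15.4 CPM in the other macrophage gates. Proliferating macrophages were also the deepest gate, with a median of 15128 and 14714 UMIs per cell beside 10012 and 10071 over all macrophages. After each cell was thinned to 3000 UMIs the untreated log2 difference of Parp2 was 1.39.

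Ly6c2 monocytes had Parp1 levels of 18.9 CPM (11 to 30.3, 17 UMIs) and 15.3 CPM (8.39 to 25.7, 14 UMIs), both below the interval of all macrophages. T cells had 19.8 CPM (19 UMIs) and 30.8 CPM (39 UMIs) of Parp1 and 20.8 CPM (20 UMIs) and 30.8 CPM (39 UMIs) of Parp2, and each of these intervals overlapped that of the other library. The genes most like Parp2 were Get4 (r = 0.80), Abce1 (r = 0.71) and Fen1 (r = 0.71), the last a flap endonuclease of DNA replication and repair. Those most like Parp1 were Sdhb (r = 0.78), Apip (r = 0.76) and Mtx1 (r = 0.74).

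SIRT2 is the mainly cytoplasmic deacetylase of the family, and Sirt2 (chr7:28766735-28788661, plus strand) had 93.6 and 86.9 CPM in Vcam1 Dnase1l3 and 84.3 and 82.5 CPM in other macrophages. Proliferating macrophages were lower, at 63.0 CPM (56.2 to 70.4) and 57.1 CPM (50.3 to 64.6), and so were monocytes, at 60.1 CPM (45.2 to 78.5) and 54.8 CPM (40.7 to 72.2). The intervals of proliferating macrophages lay below those of the 3 other macrophage gates in both libraries. The log2 differences from these gates together were -0.495 (-0.68 to -0.32), just short of the fold, and -0.57 (-0.77 to -0.38). Sirt2 was most like Snx13 (r = 0.89), Tfpt (r = 0.85) and 4931406C07Rik (r = 0.84).

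SIRT7 is the nucleolar member. Sirt7 (chr11:120618372-120625240, minus strand) ranged from 30.7 to 36.5 CPM over the 3 macrophage gates, and higher in T cells, at 68.8 CPM (53.2 to 87.5, 66 UMIs) and 48.2 CPM (36.9 to 62.0, 61 UMIs). T cells were above macrophages by a log2 of 1.02 (0.64 to 1.39) in the untreated and 0.55 (0.15 to 0.93) in the NAM library. In the NAM library this was not particular to T cells. Sirt7 was above macrophages by 1.07 (0.06 to 1.91, 11 UMIs) in NK cells and 0.73 (0.13 to 1.27, 28 UMIs) in dendritic cells together. Monocytes were above them by 0.64 (0.19 to 1.07, 47 UMIs). In the untreated library these differences were 0.64, 0.27 and 0.07, with intervals that held 0. Sirt7 shares part of its locus with Mafg on the same strand, so its count can depend on how reads from the overlap were handled. Its closest genes were Tmem128, Rbm4b and Stk24 (r = 0.82 to 0.83).

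SIRT1 and SIRT6 are nuclear deacylases that act on histones, and SIRT3 is the main mitochondrial deacetylase. Their transcripts were sparse. Sirt1 (chr10:63319005-63381704, minus strand) ranged from 6.20 to 9.44 CPM over the same gates, Sirt3 (chr7:140863666-140882309, minus strand) from 8.99 to 11.7 CPM and Sirt6 (chr10:81621785-81627797, minus strand) from 4.93 to 10.4 CPM. For none of the 3 did any macrophage gate stand apart from the rest in both libraries. Gtf2e2 was most like Sirt1 (r = 0.79), Atxn3 most like Sirt3 (r = 0.72) and Trim44 most like Sirt6 (r = 0.84). Each was picked as the highest of 6860 genes. Outside the macrophage gates these members had at most 15 UMIs over both libraries in a gate, so counting error weighs heavily in these r.

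When the 12 gates were ordered by level, neighboring gates were apart in both libraries in 0 of 11 steps for each of the 8 members other than Bst1. Their orders are therefore known only between gates that lie far from each other. The dendritic gates held between 12 and 30 cells in each library, and their intervals were wide. Sirt2 was at 121 CPM (79.5 to 176, 27 UMIs) in type 1 and 22.6 CPM (7.34 to 52.7, 5 UMIs) in Cd209a dendritic cells of the NAM library, intervals that did not overlap. In the untreated library these gates had 98.5 CPM (61.0 to 151, 21 UMIs) and 38.4 CPM (17.6 to 73.0, 9 UMIs), which overlapped. Mature dendritic cells had 26.2 CPM (5.40 to 76.5, 3 UMIs) of Sirt2 in the untreated and 165 CPM (82.2 to 294, 11 UMIs) in the NAM library. These intervals did not overlap and came from 13 and 12 cells, with a median of 8697 and 4751 UMIs per cell. After each cell was thinned to the same depth, Sirt2 was at 0.231 and 0.417 UMIs per cell. It was then found in 23.1% (5.04 to 53.8) and 41.7% (15.2 to 72.3) of these cells, intervals that overlapped.

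**Figure D2:**
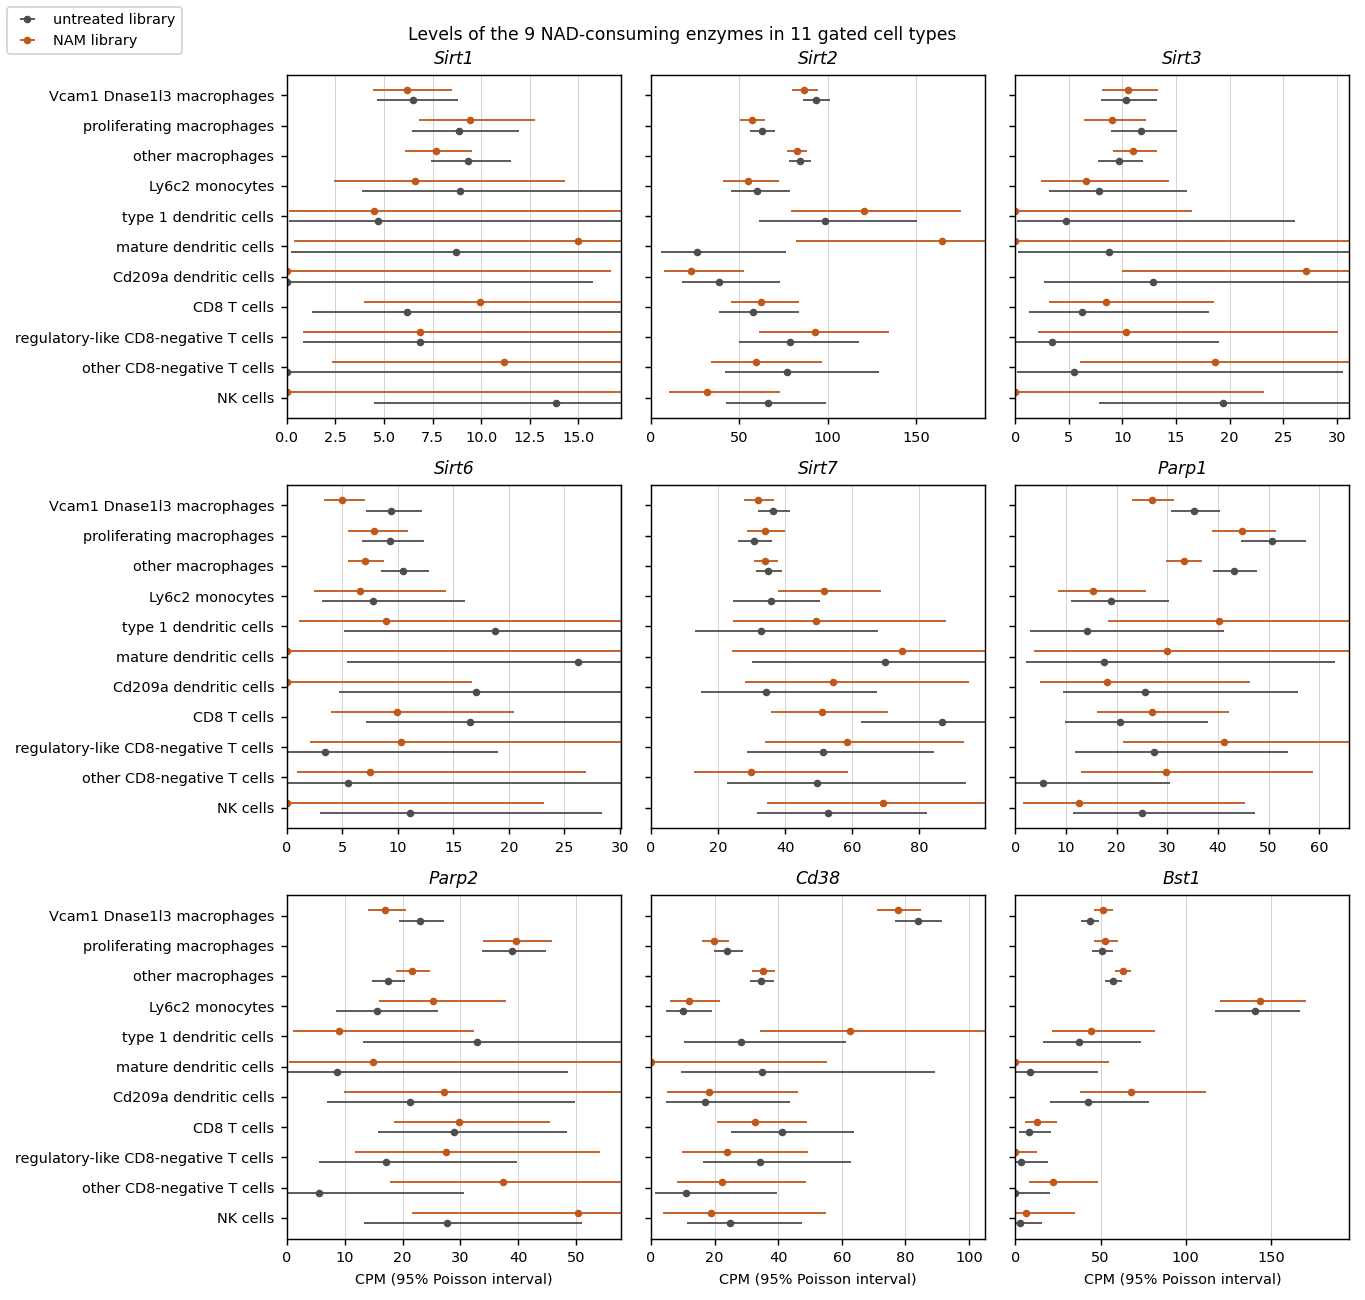
Levels of the 9 enzymes in CPM, with 95% Poisson intervals, in 11 gates of the untreated (grey) and NAM (orange) libraries; each panel has its own axis from 0, and long intervals of small gates run past its end. Among the 3 macrophage gates plotted, each with 290 or more cells in a library, Cd38 is highest in Vcam1 Dnase1l3 and Parp2 in proliferating macrophages.

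The NAM and untreated libraries were then compared within cell types. In all macrophages together (2037 and 2197 cells), 7 of 9 members were below 0 on the log2 scale and 2 above, with a median of -0.06, while the median of all 9891 genes tested was -0.04. Sirt6 was the only member past the fold (lower) and none was higher, where 5.99% of all genes were lower by the fold and 1.63% higher.

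Sirt6 was at 9.85 CPM (8.59 to 11.2, 219 UMIs) in untreated and 6.59 CPM (5.60 to 7.70, 157 UMIs) in NAM macrophages, intervals that did not overlap, with a log2 ratio of -0.58 (-0.89 to -0.28). Among the gates, Vcam1 Dnase1l3 macrophages had -0.93 (-1.61 to -0.28, 89 UMIs in all), other macrophages -0.58 (-1.04 to -0.12) and proliferating macrophages -0.24 (-0.92 to 0.43). A random thinning of each cell to 3000 UMIs left 49 Sirt6 UMIs in each library and a ratio of -0.11 (-0.71 to 0.49). The thinned ratio was -0.32 in Vcam1 Dnase1l3 macrophages (12 and 10 UMIs), -0.11 in other macrophages (24 and 25) and 0.13 in proliferating macrophages (6 and 6). The mean over cells, which keeps all UMIs and gives each cell the same weight, gave -0.54. Monocytes (7 and 6 UMIs) and T cells (10 and 12 UMIs) were too shallow to place Sirt6.

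Parp1 was at 40.6 CPM (38.0 to 43.3, 902 UMIs) in untreated and 33.1 CPM (30.8 to 35.5, 788 UMIs) in NAM macrophages. The log2 ratio of -0.30 (-0.44 to -0.16) did not reach the fold, and it ranged from -0.30 to -0.25 over the alternative settings. It was -0.39 (-0.68 to -0.09) in Vcam1 Dnase1l3, -0.38 (-0.59 to -0.16) in other and -0.18 (-0.46 to 0.09) in proliferating macrophages. Over the alternative settings these ran from -0.49 to -0.06, from -0.38 to -0.29 and from -0.22 to 0.02, and on thinning the Vcam1 Dnase1l3 value was -0.06 (-0.63 to 0.51). T cells had a ratio above 0, 0.64 (-0.19 to 1.51), from 19 and 39 UMIs.

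Over all macrophages Parp2 was at 23.3 and 22.9 CPM, with a ratio of -0.03 (-0.20 to 0.15). Within them it was -0.44 (-0.81 to -0.06, 142 and 107 UMIs) in Vcam1 Dnase1l3 and 0.31 (0.01 to 0.62, 155 and 226 UMIs) in other macrophages. With gates on thinned cells the ratio in Vcam1 Dnase1l3 macrophages was 0.11, so its direction depended on which cells the gate took. The ratio in other macrophages ran from 0.03 with those gates to 0.36, and on thinning to 3000 UMIs it was 0.07 (-0.46 to 0.60). No member passed the fold in Vcam1 Dnase1l3 macrophages among the 7 with 100 or more UMIs, where 6.43% of genes were lower and 2.08% higher. In other macrophages Sirt6 alone passed it, where 6.33% were lower and 2.06% higher.

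**Figure D3:**
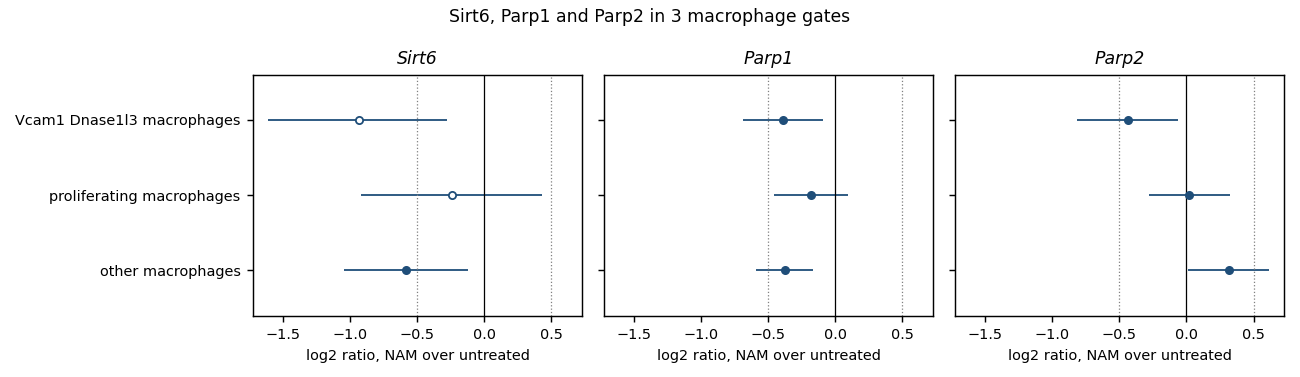
Log2 ratio of NAM over untreated CPM, with 95% conditional binomial intervals, for Sirt6, Parp1 and Parp2 in 3 macrophage gates. Filled points have 100 or more UMIs over both libraries, open points fewer, and dotted lines mark the fold of 0.5. Sirt6 and Parp1 are below 0 in the 3 gates plotted, and Parp2 lies on opposite sides of 0 in Vcam1 Dnase1l3 (-0.44) and other macrophages (0.31).

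The ectoenzymes had ratios near 0. Cd38 in all macrophages was at 45.9 CPM (43.1 to 48.8, 1020 UMIs) and 43.0 CPM (40.4 to 45.7, 1025 UMIs), a ratio of -0.09 (-0.22 to 0.03). Bst1 was at 58.2 CPM (55.0 to 61.4, 1293 UMIs) and 63.1 CPM (60.0 to 66.4, 1505 UMIs), a ratio of 0.12 (0.01 to 0.23). Both intervals lay within the fold. After thinning, the signs of both were the other way, at 0.12 for Cd38 and -0.03 for Bst1.

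The other sirtuins had intervals that held 0 in macrophages. Sirt2 went from 83.0 CPM (1846 UMIs) to 79.8 CPM (1902 UMIs), a ratio of -0.06 (-0.15 to 0.04). Sirt7 went from 33.9 to 33.0 CPM (-0.04, -0.18 to 0.11), Sirt3 was at 10.2 CPM in both libraries (0.01, -0.26 to 0.28) and Sirt1 went from 8.32 to 7.64 CPM (-0.12, -0.43 to 0.18). All 4 intervals lay within the fold.

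In Ly6c2 monocytes only Sirt2 (-0.13, -0.72 to 0.45) and Bst1 (0.03, -0.33 to 0.40) had 100 UMIs, and neither passed the fold, where 8.82% of 2223 genes were lower and 5.67% higher. In T cells the members with 100 UMIs were Sirt2 (0.02, -0.46 to 0.51) and Sirt7, whose ratio of -0.51 (-1.04 to 0.01, 66 and 61 UMIs) passed the fold and ran from -0.71 to -0.36 over the alternative settings. The 4 neutrophil markers S100a8, S100a9, Csf3r and Cxcr2 also differed between the libraries there, at 16.7 and 103 CPM in T cells and 13.7 and 360.3 CPM in regulatory-like T cells, and their part in the Sirt7 ratio was not tested. The background in T cells was 5.77% of 2860 genes lower and 4.09% higher. In CD8 T cells alone Sirt7 was at 86.7 CPM (42 UMIs) and 51.1 CPM (36 UMIs), with a ratio of -0.76 (-1.45 to -0.09). Regulatory-like T cells had 51.2 and 58.3 CPM (0.19, -0.90 to 1.29).

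**Figure D4:**
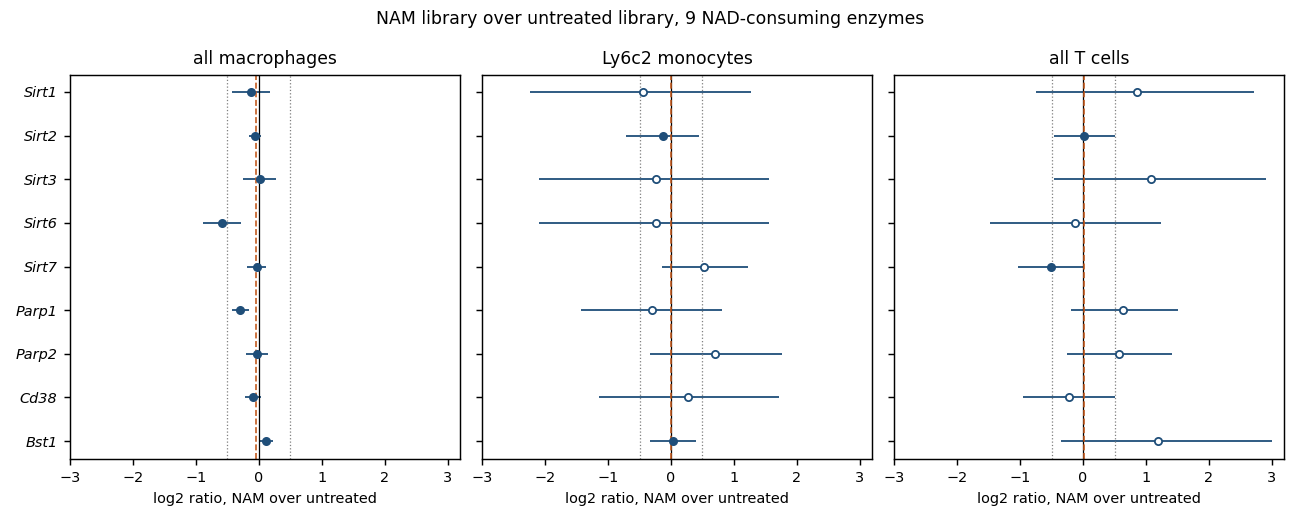
Log2 ratio of NAM over untreated CPM for the 9 enzymes in all macrophages, Ly6c2 monocytes and all T cells, with 95% conditional binomial intervals. Filled points have 100 or more UMIs over both libraries, open points fewer, dotted lines mark the fold of 0.5 and the dashed line is the median of all genes tested. Only Sirt6 in macrophages (-0.58) and Sirt7 in T cells (-0.51) have a filled point past the fold.

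The wider NAD pathway was described by counts over 5 other gene lists, without a test. Among 23 other genes of the NAD-consuming families (further sirtuins, PARPs, ADP-ribosyltransferases and Sarm1, not all of them active enzymes), 15 had 100 UMIs in macrophages, 0 passed the fold in either direction and their median log2 ratio was 0.09. In monocytes 4 had 100 UMIs, of which Zc3hav1 and Parp12 were lower and Parp14 higher by the fold, beside 8.82% of all genes lower and 5.67% higher. Zc3hav1, an antiviral zinc-finger protein of the PARP family that lacks catalytic activity and so consumes no NAD, was at 177 CPM (159 UMIs) and 98.6 CPM (90 UMIs), a ratio of -0.84 (-1.23 to -0.46). It was below 0 in each of the 12 gates, with values over all macrophages of -0.34 (-0.44 to -0.23) and over T cells of -0.74 (-1.01 to -0.47). Parp12 had -0.50 (-0.98 to -0.03) and Parp14, a PARP of interferon responses, 0.50 (0.01 to 1.01) in monocytes.

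Of the 12 genes of NAD synthesis and NAM clearance, 7 had 100 UMIs in macrophages, and 2 of these were higher by the fold, beside 1.63% of all genes. Nmnat1, the nuclear NMN adenylyltransferase, went from 4.72 to 6.84 CPM (0.53, 0.17 to 0.90), and Nadsyn1, NAD synthetase, from 1.89 to 2.98 CPM (0.66, 0.09 to 1.24). Nampt, which turns NAM into NMN at the rate-limiting step of salvage, was at 95.9 and 106.0 CPM (0.14, 0.06 to 0.23). The list's median was 0.14. None of the 7 genes of ADP-ribose removal (median -0.04) or the 6 of the extracellular nucleotide pathway (median 0.04) with enough UMIs passed the fold in all macrophages together. In the gate of other macrophages, 1 of 6 ADP-ribose removal genes (0.61) and 1 of 6 synthesis and clearance genes (0.75) were higher by it. All genes higher there were 2.06%. In T cells 1 of 2 synthesis and clearance genes was higher (0.90), beside 4.09% of all genes. Of the 13 repair partners of PARP1, 9 were below 0 in all macrophages, with a median of -0.16. Of these 1, Brca1, was lower by the fold (-0.60, -1.13 to -0.09), beside 5.99% of all genes. Proliferating macrophages, where 5 of these partners were higher, were 10.9% of the untreated library and 8.85% of the NAM library. Weighting the 4 macrophage gates alike in both libraries gave -0.27 for Parp1 and -0.60 for Sirt6.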

How the data were processed

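Cells were CD45+ leukocytes of subcutaneous TSA tumors, with 1 untreated and 1 NAM library (pools of 3 mice). The authors prepared 10x Genomics 3′ version 2 libraries and used Cell Ranger on mm10 to make the deposited tables of raw UMI counts by cell, in which no cell had under 3000 UMIs. The annotation used for counting is not given in the sources used here. UMIs were summed per library and gate and divided by the gate's total. A gene counted as past the fold at an absolute log2 ratio of 0.5 with 100 or more UMIs over both libraries (between gates, in each library). With 1 library per group no p-value was computed. All 9 members were named, with genes of the other lists past the fold in macrophages or monocytes and the 3 genes most like each member. Members, lists and gates were chosen with earlier results of these data known. Macrophages had 10 or more C1q and 1 or more Csf1r UMIs, proliferating ones also 3 or more of Top2a, Birc5, Ube2c and Mki67, and Vcam1 Dnase1l3 ones 2 or more of their pair. A further macrophage gate counts within all macrophages and the comparisons between gates, but its own values, and 1 gene of the repair list, are not reported here. Monocytes had 3 or more Ly6c2 and 10 or more Lyz2 UMIs with 5 or fewer of C1q, and lymphocytes were gated on Cd3, Cd8 and NK genes. Doublets were not called, and leaving out the 2.5% of cells with most UMIs was an alternative. Intervals were tested on simulated UMI sums that held Poisson counting error alone, so differences between cells, mice or libraries were not covered. Leaving out shared barcodes or haemoglobin cells, weighting macrophage gates alike, and all alternatives of contrasts between gates were added after seeing the data. Loci are from GENCODE vM21 (GRCm38) by symbol. Promoter windows are from RefSeq (GRCm38.p6), which matched 8 of 9 members and not Bst1. Art2a-ps had no match. Python 3.11.15, NumPy 2.4.6, SciPy 1.17.1, pandas 2.3.3 and matplotlib 3.10.9 were used (seed 1).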

Additional observations from a re-analysis of the deposited data

Results flagged for a closer look

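Parp2 stood on opposite sides of 0 in a pair of macrophage gates, each with an interval that left out 0. The log2 ratio of NAM over untreated was 0.31 in other macrophages and -0.44 in Vcam1 Dnase1l3 macrophages. Over the alternative settings the former ran from 0.03 to 0.36 and the latter from -0.47 to 0.11. The difference between these ratios was not tested, since there was 1 library per group, and cells near the border of the gates can fall on either side of it.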

How the results depend on the processing

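Of 797 member ratios recomputed under 10 alternative settings, 83 changed sign, 26 of them on thinning to 3000 UMIs. In 5 of the 83 the value reported was 0.5 or more in size or had an interval that left out 0. Of the ratios other than these 5, 773 stayed within the interval of the value reported and 19 left it. Thinning, which leaves fewer UMIs to count, gave 4 of those 5 and 15 of those 19. Its values were -0.16 for Sirt2, -0.11 for Sirt6, 0.12 for Cd38 and -0.032 for Bst1 in all macrophages. Besides Bst1 it turned Sirt2 in all dendritic cells (-0.63), Sirt7 in Cd209a dendritic cells (-0.57) and Parp2 in T cells (-0.080), and gates on thinned cells turned Parp2 in Vcam1 Dnase1l3 macrophages (0.11). The mean over cells moved no ratio out of its interval. Of 24 values of contrasts between macrophage gates, 20 stayed within the interval, 4 left it and 0 changed sign. A minimum of 50 UMIs in place of 100 gave 254 genes higher and 815 lower by the fold in macrophages, 273 higher and 412 lower in monocytes, and 311 higher and 434 lower in T cells. A minimum of 200 UMIs gave 101 higher and 409 lower in macrophages, 51 higher and 88 lower in monocytes, and 43 higher and 57 lower in T cells. No paired analysis was possible because each group has 1 library. Depth limits the ratios outside macrophages, where only Sirt2 and Bst1 in monocytes and Sirt2 and Sirt7 in T cells reached 100 UMIs.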
